A study of Homo sapiens with 3 samples.

Results

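KLK3, KLK2 and KLK4 are 3 neighbouring genes of the kallikrein cluster on the long arm of chromosome 19. They were examined through the peaks of trimethylated lysine 36 of histone H3 (H3K36me3) that overlap chromosome 19 from 51290000 to 51600000 of the human build hg19, an interval of 310 kb. The interval was fixed by position and not by any measured value. It held 11 of the 117568 peaks of the untreated library and 14 of the 131801 peaks of the DHT library. Gene bodies were taken as 51358 to 51364 kb for KLK3, 51377 to 51384 kb for KLK2 and 51410 to 51414 kb for KLK4, rounded to whole kb. The other 293 kb served as the flank. Of the peaks, 3 untreated and 4 DHT peaks overlapped a gene body.

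The cells were LNCaP, an established human prostate cancer line that carries the androgen receptor and responds to androgens. One chromatin immunoprecipitation sequencing library (ChIP-seq) came from cells labelled as having no treatment, and the other from cells exposed for 4 h to 100 nM of DHT (dihydrotestosterone, an androgen that binds the androgen receptor more tightly than testosterone does) in red-free RPMI. Routine culture was in RPMI with 10% FBS, and an input library without antibody was not analysed here. Each condition had 1 library, so no difference below has a replicate check, no test between conditions was possible, and the hormone and the change of medium cannot be told apart. The cell identity could not be checked against expression markers, since peaks of 1 histone mark were the only data.

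Kallikreins are secreted serine proteases. KLK3 encodes prostate-specific antigen, which liquefies semen by cutting semenogelins and is measured in blood as a marker of prostate disease. KLK2 encodes a trypsin-like protease that is the closest relative of KLK3, and KLK4 encodes a protease made in prostate and, in developing teeth, in the enamel organ. Transcription of KLK3 and KLK2 is a textbook target of the androgen receptor, which binds at their promoters and at an enhancer upstream of KLK3. H3K36me3 is laid down by SETD2 travelling with elongating RNA polymerase II, so it is typically found over the body of a transcribed gene and increases away from its start. It is not a mark of promoters or enhancers.

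The promoters of KLK3 and KLK2 are shown because these genes are the androgen receptor's textbook targets in the cluster. Covered sequence did not single them out, since the KLK4 body also had more of it after DHT. Each line gives the 250 bases before the gene's start, 5′ to 3′ on the plus strand, from RefSeq on build GRCh38.p14, at chr19:50854665-50854914 for KLK3 and chr19:50873189-50873438 for KLK2. These positions are on another build than the peaks and were not compared with them. Capitals mark the match to a relaxed androgen response element.
KLK3: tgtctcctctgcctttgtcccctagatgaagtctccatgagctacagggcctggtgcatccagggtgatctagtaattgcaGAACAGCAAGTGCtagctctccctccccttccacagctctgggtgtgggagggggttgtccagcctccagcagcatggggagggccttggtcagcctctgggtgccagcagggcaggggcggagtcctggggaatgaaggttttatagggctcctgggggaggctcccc
KLK2: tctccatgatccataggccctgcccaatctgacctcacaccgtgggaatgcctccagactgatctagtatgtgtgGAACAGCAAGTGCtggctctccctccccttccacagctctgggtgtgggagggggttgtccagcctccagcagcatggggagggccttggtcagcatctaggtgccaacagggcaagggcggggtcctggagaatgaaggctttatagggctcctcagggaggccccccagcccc

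These promoters were alike over most of their length. In a global alignment, 205 of 259 columns (79.2%) held the same base. The same 13 letters, GAACAGCAAGTGC, lay at -169 to -157 from the start of KLK3 and at -175 to -163 from that of KLK2. Search on both strands for the palindromic core of the response element, GNACA and TGTNC with any 3 bases between them, found no match in either, and 0.327% of 35116 promoter windows of this length held one. The relaxed form, GNACA and NGTNC with the same spacing, includes every match of the first and matched once in each. It was written after the sequences were seen, so these matches were fixed in advance. Of all windows 1.81% held it, a share that describes the windows and is no measure of enrichment. Neither of the 2 KLK4 windows in the table matched, and their identity to KLK3 was 45.2% and 46.4%. A match describes letters and does not show binding.

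In all 3 gene bodies more sequence was covered by peaks after DHT, while the flank, as deposited, was covered to nearly the same summed length in both libraries. The gene bodies together had 2803 bp under untreated peaks and 6974 bp under DHT peaks, or 16.5% and 41.0% of their 17 kb. The flank held 8112 bp and 8314 bp, or 2.77% and 2.84% of its length. The interval was more covered after DHT by a net 4373 bp, and the gene bodies by 4171 bp (95.4% of the net). The flank's net of 202 bp summed differences of 1349 bp after KLK4, 14 bp between KLK2 and KLK4, -600 bp between KLK3 and KLK2 and -561 bp before KLK3. The gene bodies' part was 79.2% with bodies widened by 1 kb. With peaks joined at 5 kb it was 44.7%, and the flank was then 1.48 times as covered after DHT, against 1.92 times for the 3 bodies together, 1.25 for KLK3 and 1.25 for KLK4. Bulk chromatin was used, so a mark on more cells and more of it per cell cannot be told apart.

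**Figure D1:**
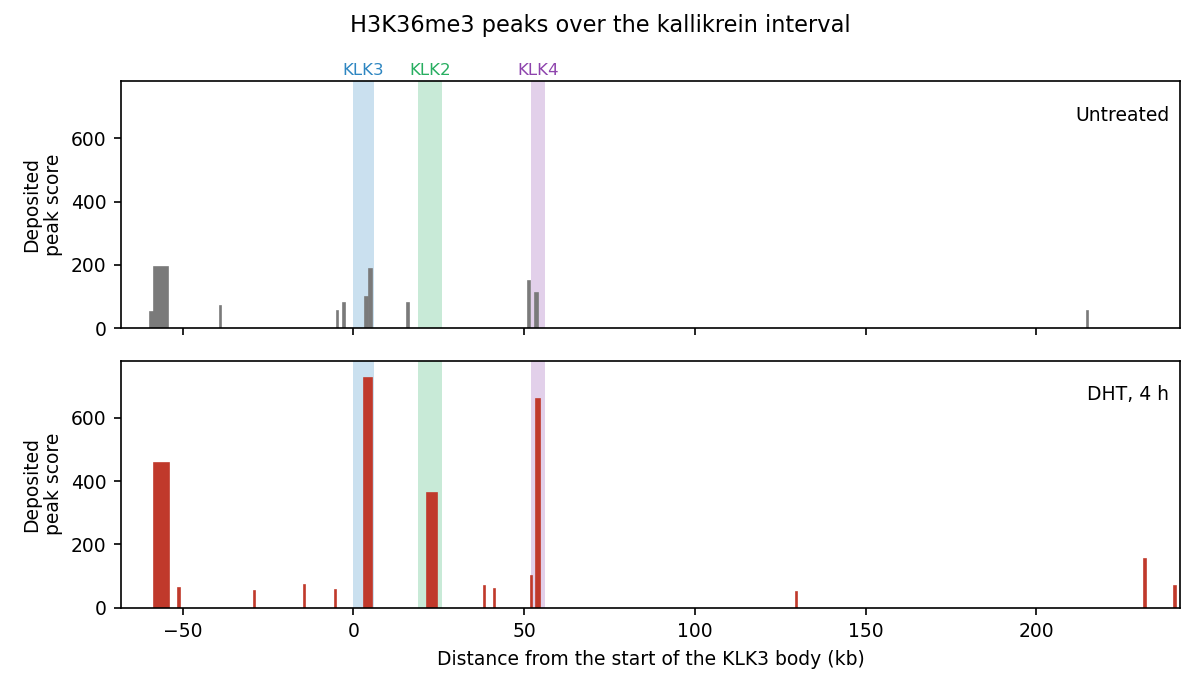
Peaks over the kallikrein interval, with distance from the start of the KLK3 body in kb across and the deposited peak score upward, untreated above and DHT below. Each bar is 1 peak, as wide as the peak, and shaded bands are the gene bodies. After DHT the 4 peaks scoring 300 or more are those in KLK3 and KLK2, the higher of the 2 in KLK4 and the wide peak near the left edge. In untreated cells none of the 11 peaks scored that high. The level of 300 lies between their highest score, 191.99, and the lowest of the 4 DHT scores, 361.79, so this split is no test. Over the whole lists 3.66% of DHT peaks and 2.60% of untreated peaks did, and the scale of the score is not stated.

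KLK3 was marked in both libraries, over the same 3′ part of the gene. In untreated cells a peak of 888 bp from 51361501 to 51362388 scored 99.61, and one of 1050 bp from 51362451 to 51363500 scored 187.63, with 62 bp between them. After DHT a single peak of 2504 bp ran from 51361000 to 51363503 and scored 725.41. It took in all 1938 bp of the untreated peaks, began 501 bp closer to the gene start and ended 3 bp past them. KLK3 is read in the plus direction, so the DHT peak spanned 2.999 to 5.503 kb from its start. The first part of the gene, up to 2.999 kb, had no peak in either library. Peaks covered 32.3% of the body without treatment and 41.7% with DHT, 1.29 times as much.

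KLK2 was the gene body with a peak in the DHT library alone. No untreated peak overlapped its 7 kb, and the nearest untreated peak ended 5336 bp before the DHT peak began. After DHT a peak of 2782 bp from 51379624 to 51382405 scored 361.79 and covered 39.7% of the body. It lay 2.623 to 5.405 kb from the gene start, with its centre at 57.3% of the body, against 70.9% for the DHT peak of KLK3. Absence from the list says that the caller's threshold was not passed, not that KLK2 lacked the mark.

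KLK4, which is read in the minus direction, was marked in its middle in both libraries. In untreated cells a peak of 865 bp from 51411293 to 51412157 scored 110.81. After DHT a peak of 1260 bp from 51411438 to 51412697 scored 657.76, and both libraries shared 720 bp there. The DHT peak reached 540 bp further toward the gene start. A second DHT peak, of 428 bp from 51410008 to 51410435, scored 99.93 and lay at the 3′ end of the body, 3.565 to 3.993 kb from its start. Peaks covered 21.6% of the body without treatment and 42.2% with DHT, 1.95 times as much.

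The difference at KLK4 depended on where the gene was taken to end. An untreated peak of 707 bp from 51409083 to 51409789, scoring 149.81, stopped 211 bp short of the rounded body, on the 3′ side of the gene. With the bodies widened by 1 kb on each side, KLK4 had 1572 bp under untreated peaks and 1688 bp under DHT peaks, and the ratio was 1.07. RefSeq lists KLK4 as 5045 bp long on GRCh38.p14, longer than the 4 kb used here, so the rounded body may leave out part of the gene. KLK3 and KLK2 are listed at 5850 and 7129 bp, close to the 6 and 7 kb used. The same widening left the covered length of KLK3 at 1938 and 2504 bp and that of KLK2 at 0 and 2782 bp.

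**Figure D2:**
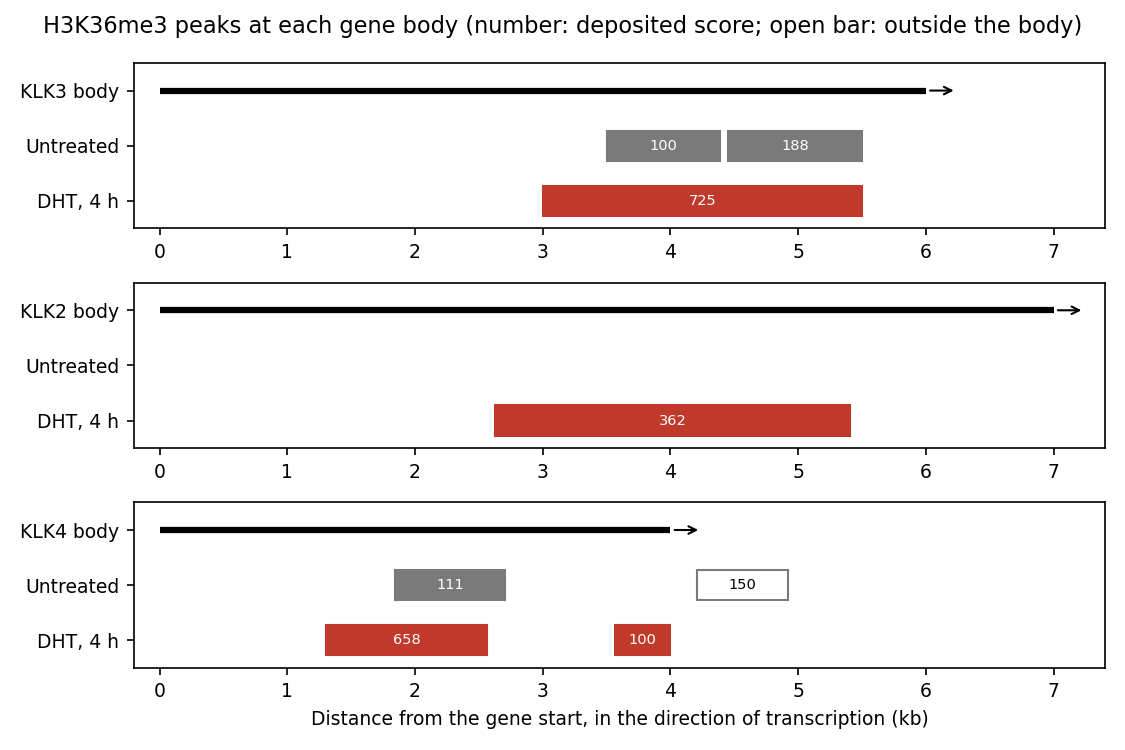
Peaks at each gene body, with distance from the gene start in kb in the direction of transcription across and the 2 libraries as rows under the body. Filled bars are peaks that overlap the body, open bars are peaks outside it, and the number is the deposited score. In every gene the first kb was free of peaks, KLK2 had a peak only after DHT, and the open untreated bar beyond KLK4 is the peak that stops 211 bp short of its body.

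Set beside tiles of 6 kb over the nuclear chromosomes, the gene bodies were among the more covered places after DHT. Of 115907 tiles with a peak of either library, 2.22% were covered at least as much as KLK3 after DHT, 2.57% as much as KLK2 and 2.16% as much as KLK4. In untreated cells 4.67% of tiles reached the coverage of KLK3 and 11.2% that of KLK4. Median coverage of these tiles was 5.67% untreated and 5.88% after DHT. These shares depended on tile size. With tiles of 4 kb, the length of the KLK4 body, they were 4.06% for KLK3, 4.55% for KLK2 and 3.97% for KLK4 after DHT, and 7.82% for KLK3 and 16.0% for KLK4 in untreated cells. Tiles are not genes, and those holding transcribed genes were not separated from the rest.

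A gene body or tile was tested where peaks of 1 library or the other covered at least 1 kb. It was called higher when it was covered at least 2-fold more after DHT. By this rule 1 of 3 gene bodies, KLK2, was called, where 18.0% of 27280 tiles were called higher and 17.2% lower. At 1.5-fold KLK4 was called as well, giving 2 of 3, where 26.2% of tiles were called higher and 29.1% lower. A difference of 10 percentage points also called KLK2 and KLK4, where 23.7% of tiles were called higher and 25.8% lower. KLK3 fell short of it at 9.43 points. KLK2 and KLK4 reached the 1 kb floor in the DHT library alone, with 0 and 865 bp covered in untreated cells. They were thus tested only because they were high there, and their calls are no support for a difference. With 3 genes, these counts cannot be set apart from the share in tiles. Having no untreated peak was a rarer state, found in 6.60% of tiles, and 1.01% had none together with at least the 2782 bp that KLK2 had after DHT. Both conditions are those of KLK2 itself, so these shares describe the tiles and are no test. The ratio was 1.29 for KLK3 and 1.95 for KLK4, the latter 1.07 with bodies widened by 1 kb. Among tiles with an untreated peak the median ratio was 0.890. That choice leaves out tiles with DHT peaks alone and keeps those with untreated peaks alone, which lowers the median. Summed covered length over all nuclear chromosomes had a ratio of 1.03.

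**Figure D3:**
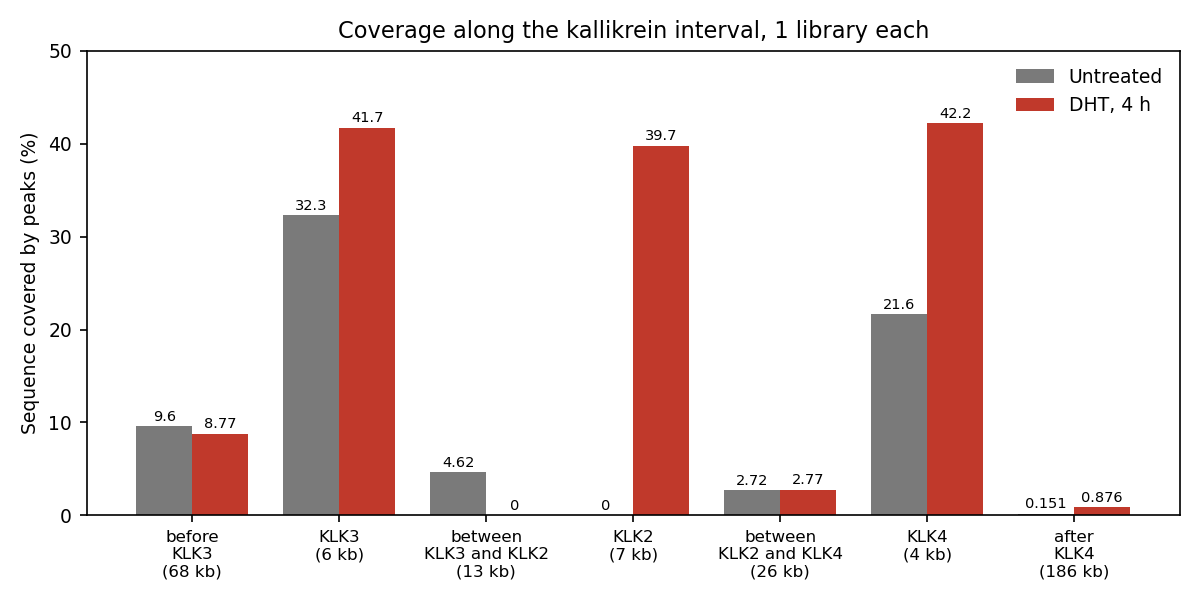
Percent of sequence covered by peaks in each gene body and each stretch between them, in order along the chromosome, for untreated (grey) and DHT (red) cells, 1 library each. The gene bodies reach 39.7% to 42.2% after DHT, and no stretch of the flank exceeds 9.60% in either library.

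The highest-scoring peak of each gene body stood high in the DHT list by the score deposited with each peak. The KLK3 peak ranked 218 among the DHT peaks on nuclear chromosomes, so 0.165% of the list scored at least as high. The higher KLK4 peak followed at rank 321 (0.244%) and the KLK2 peak at rank 2753 (2.09%). The second KLK4 peak did not stand high, at rank 51912 (39.4%). In the untreated list the higher KLK3 peak ranked 11129 (9.47%) and the KLK4 peak 34015 (28.9%). The scale of the score is not stated and the lists differ in length, so ranks describe each list and show no change between them. High scores were also more common in the DHT list as a whole, with 3.66% of peaks at 300 or more against 2.60% in the untreated list.

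**Figure D4:**
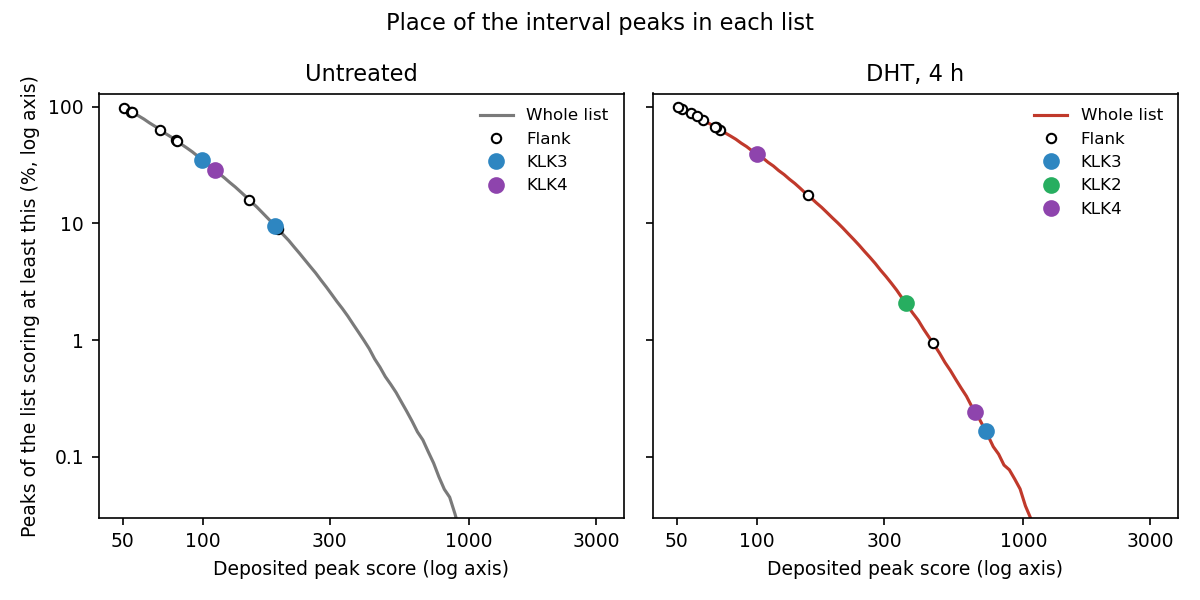
Percent of each list that scored at least a given value (line), against the deposited score, both on log axes, for untreated (left) and DHT (right). Points are the peaks of the interval. After DHT the KLK3 peak lies at 0.165%, the KLK4 peaks at 0.244% and 39.4% and the KLK2 peak at 2.09%, while most flank peaks lie in the upper left, among the lowest scores.

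The KLK2 peak differed from most DHT peaks of its score in having no untreated counterpart. Of 2753 DHT peaks that scored at least as high, 28 (1.02%) were overlapped by no untreated peak. Of the 152 that were also at least as wide, 4 (2.63%) had none, the KLK2 peak among them. This comparison was chosen after the values of KLK2 were seen and describes the list. KLK2 and KLK3 are similar in sequence, and how reads fitting both were placed is not given in the sources used here. Their part in the result was not tested.

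Around the 3 genes the interval was thinly marked, except for a wide peak near its start. By gene order in RefSeq, KLK1 and KLK15 precede KLK3, the pseudogene KLKP1 lies between KLK2 and KLK4, and KLK5 to KLK14 follow KLK4 in numerical order. Genes that are not kallikreins, among them ACP4 and the pseudogene C19orf48P, come before KLK1. No annotation of hg19 was used, so peaks of the flank were not assigned to these genes. The 186 kb after KLK4 held 1 untreated peak of 280 bp and 3 DHT peaks summing to 1629 bp, or 0.151% and 0.876% of the stretch. This was the least covered stretch apart from the 13 kb between KLK3 and KLK2 after DHT, which had no DHT peak. Several kallikreins in that direction are known mainly from skin and other squamous epithelia.

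The widest peak of the interval in both libraries lay outside the kallikrein trio. It ran from 51299518 to 51303822 in untreated cells, 4305 bp with a score of 191.99, and from 51299523 to 51304063 after DHT, 4541 bp with a score of 457.87. The starts were 5 bp apart, and 4300 bp were shared. An untreated peak of 1188 bp from 51298317 to 51299504, scoring 50.75, adjoined it, and a DHT peak of 666 bp from 51306540 to 51307205, scoring 62.49, followed it. This stretch before KLK3, 68 kb long, was covered at 9.60% in untreated cells and 8.77% after DHT, the reverse of the order seen in the gene bodies. That difference of -561 bp is smaller than the adjoining untreated peak of 1188 bp alone. The deposited score of the wide peak, on a scale that is not stated, was higher in the DHT list than in the untreated list, as were those of KLK3 and KLK4.

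None of the other flank peaks was overlapped by a peak of the other library. Upstream of KLK3, untreated peaks of 367 and 364 bp scored 53.90 and 79.44, the nearer ending 2598 bp before the body. The nearest DHT peak on that side, of 210 bp and scoring 56.29, ended 5041 bp before it. Between KLK3 and KLK2 an untreated peak of 600 bp from 51373688 to 51374287 scored 79.78. Between KLK2 and KLK4, where KLKP1 lies by gene order, DHT peaks of 413 and 308 bp scored 70.00 and 59.31. Beyond KLK4, a DHT peak of 834 bp from 51589414 to 51590247 scored 154.85. At the left, a DHT peak of 205 bp from 51343667 to 51343871 scored 72.81. The remaining 2 untreated and 3 DHT peaks of the flank were 280 to 457 bp wide and scored 50.46 to 69.69. Median scores were 81.23 in the untreated list and 85.71 in the DHT list, which 2 of 8 untreated and 2 of 10 DHT flank peaks reached.

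Peaks that overlapped between the libraries lay in the gene bodies and at the wide peak. In the gene bodies, 3 of 3 untreated peaks and 2 of 4 DHT peaks were overlapped by a peak of the other library. In the flank the counts were 1 of 8 and 1 of 10, the wide peak in both cases. Over the interval, 36.4% of untreated peaks (95% exact binomial interval 10.9% to 69.2%) and 21.4% of DHT peaks (4.66% to 50.8%) were overlapped. Over all nuclear chromosomes the shares were 52.3% and 48.5%, and on chromosome 19 they were 61.4% and 52.8%. The untreated interval includes the share of all chromosomes and of chromosome 19. For DHT peaks the interval includes 48.5% but not 52.8%. These intervals cover counting error only and treat neighbouring peaks as independent.

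Over the whole interval, peak number differed less between the libraries than covered length. The flank alone went the other way, with 8 untreated and 10 DHT peaks and a ratio in covered length of 1.02. Covered length has no counting interval, so this order was not tested. Counts of 11 and 14 peaks have exact Poisson 95% intervals of 5.49 to 19.7 and 7.65 to 23.5, which overlap widely. Covered length of the whole interval was 10915 bp for untreated and 15288 bp for DHT peaks, or 3.52% and 4.93%, a ratio of 1.40. Chromosome 19 as a whole had a ratio of 1.14 and all nuclear chromosomes 1.03. Of 2549 tiles of 310 kb in which peaks of 1 library or the other covered at least 10 kb, 9.57% had a ratio at least as high as the interval, and their median ratio was 1.01.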

How the data were processed

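H3K36me3 was mapped by ChIP-seq in LNCaP cells, and 2 of the 3 libraries in the labels, untreated and DHT, entered the comparisons. The authors deposited 1 list of peaks per library with a score per peak, running from 50 to 3100. The peak names carry the name of the caller MACS, and coordinates are those of hg19, as the deposited names state. Not given in the sources used here are the caller's version, settings and control, the aligner and the number of reads, so depth is unknown. Within each list the score ranked and filtered peaks, and setting scores side by side compares the libraries only as far as their scales match.

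Covered length, peak counts and overlap (at least 1 bp) were computed in Python 3.11.15 with NumPy 2.4.6 and SciPy 1.17.1, after tests on simulated intervals, for chromosomes 1 to 22, X and Y. Gene bodies came from the rule that defined the interval. Promoters were aligned with Biopython 1.88. With 1 library per group no p-value was computed. The text names the 3 genes with every peak in their bodies and, in the flank, the 3 widest and 3 highest-scoring peaks of each library, with a few neighbours added after their values were seen. Genes and rules were chosen with earlier results of these data known. Alternatives were the higher-scoring 50% of each list, lists trimmed by score to equal covered length, joining of peaks at 1 kb and 5 kb, bodies widened by 1 kb, 50% overlap, other call rules and tiles of 4 and 7 kb. A value was taken as moved when it changed by more than 1.5 times, or for shares left its 95% interval.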

Additional observations from a re-analysis of the deposited data

How the results depend on the processing

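Of 111 values recomputed under an alternative, 92 stayed within these limits, 18 moved and 1 reversed. KLK2 had no untreated coverage and a difference of 2782 bp under every list setting and with widened bodies. Its lack of untreated coverage was fixed in advance and is no check. Score cuts only remove peaks, and no untreated peak lay near enough for joining or widening to reach the body. Such values count among the 92. KLK3 stayed between 1.25 and 1.29 times as covered after DHT, which is little check. Its ratio was the same, 1.29, under both score cuts and with widened bodies, because these removed and added no peak of KLK3. It changed only with joining, which filled the 62 bp between the untreated peaks. No paired analysis was possible because each group had 1 library. The flank ratio, 1.02, turned to 0.983 with lists trimmed to the same covered length, and was 1.48 with peaks joined at 5 kb, so it has no stable direction. At 5 kb the flank ratio exceeded that of KLK3, 1.25, and KLK4. In the higher-scoring 50% of each list the interval held 5 untreated and 6 DHT peaks, the flank 2 and 2, flank coverage was 1.71% and 1.83%, and 80.0% of untreated peaks were overlapped. With peaks joined at 5 kb the interval held 7 untreated peaks and the flank 5, KLK4 was covered at 53.9% and 67.3% with a ratio of 1.25, the flank after DHT at 4.96%, and 34.8% of tiles were called higher. With widened bodies KLK4 was covered at 28.1% after DHT instead of 42.2%, a change at the 1.5 limit itself. Its covered length after DHT stayed at 1688 bp, and only the body was longer. The ratio of 1.07 came from the untreated length, which rose from 865 to 1572 bp. Gene bodies called higher, 1 at 2-fold, were 2 at 1.5-fold and 2 at 10 points. Unknown depth limits every statement that a peak is missing.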
